A study of Mus musculus with 16 samples.

Results

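Transcripts of 8 genes of muscle protein turnover were followed: Trim63, Trim55, Trim54, Fbxo32, Asb2, Asb11, Asb15 and Rnf207. Every probe named for one of them, or carrying an accession that RefSeq assigns to it, was taken, which gave 13 of the 41174 probes, and 8 of the 19505 named genes, on the array; Rnf207 was listed under the older name D330010C22Rik. All groups were heart ventricles of 129Sv mice sampled 1 week after surgery, with 4 arrays each: CHIP(-/-) mice after TAB, CHIP(-/-) mice after sham surgery, wild-type mice after TAB and wild-type mice after sham surgery. TAB, trans-aortic banding, narrows the aorta and loads the left ventricle with pressure; CHIP, the product of Stub1, is a ubiquitin ligase that works with heat shock chaperones. The labels call the 4 arrays of a group biological replicates and give neither age nor sex, and they do not say how the Stub1 allele was made. Values are log2 ratios, heart over a common reference made from whole neonatal mice, and are therefore not compared as levels between genes.

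Ubiquitin ligases choose which proteins are marked for the proteasome. Trim63, Trim55 and Trim54 encode MuRF1, MuRF2 and MuRF3, RING-finger ligases that bind the sarcomere and microtubules of striated muscle, while Fbxo32 encodes atrogin-1, the F-box subunit that brings substrates to a cullin-1 ligase. The ASB genes encode ankyrin-repeat proteins with a SOCS box, which serve as the substrate receptors of cullin-5 ligases, and Rnf207 encodes a RING-finger protein of heart muscle. Trim63 and Fbxo32 are widely used as markers of muscle atrophy, in which FoxO factors and glucocorticoid signalling are known to raise them.

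Between 27.0% and 37.7% of heart spots were well above background on an array, the scanner software's own mark for a spot clearly brighter than its surroundings. Each group filled 1 of 4 slides, so that in every result the group and its slide cannot be told apart. Pairs of arrays within a group had r from 0.953 to 0.980, and the lowest r of any pair was 0.841. The atrial myosin light chain gene Myl7 was high on 3 sham arrays (CHIP(-/-) sham replicate 1 and wild-type sham replicates 1 and 3), and the Y-linked gene Ddx3y was well above background on 3 others (CHIP(-/-) sham replicates 2 and 4 and wild-type sham replicate 4) and on none after TAB. On these 3 arrays the Y-linked gene Eif2s3y was also well above background, and the female-expressed RNA Xist was not on probe A_51_P145453. All TAB arrays showed the reverse. By these transcripts the sham groups mixed males and females and the TAB groups were female, so sex was not balanced between TAB and sham. Stub1 was lower on all CHIP(-/-) than on all wild-type arrays, by 1.70 after sham on the log2 scale (limma adjusted p = 1.07e-10) and by 1.33 after TAB (adjusted p = 1.78e-08); the sources used here do not place its probe relative to the disrupted sequence.

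RefSeq promoter windows, from 250 bases before to 50 after a start site, were at hand for 5 of the 8 genes. Those of Trim63, its relative Trim54 and Asb15 are shown because Trim63 and Trim54 are close relatives and Asb15 had the largest fall among the genes with a window. Capitals mark matches, on either strand, to the FoxO core TGTTTAC, the E-box CAGCTG of myogenic factors, the glucocorticoid half-site TGTTCT and the TATA box TATAAA.
Trim63 promoter, GRCm38.p6 chr4:134314870-134315169, plus strand: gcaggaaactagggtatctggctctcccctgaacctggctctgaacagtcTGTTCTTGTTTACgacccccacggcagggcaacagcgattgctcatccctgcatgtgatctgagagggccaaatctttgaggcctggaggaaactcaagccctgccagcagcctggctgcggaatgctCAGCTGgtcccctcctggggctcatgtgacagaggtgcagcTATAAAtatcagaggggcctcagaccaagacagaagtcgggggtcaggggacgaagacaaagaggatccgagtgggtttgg
Trim54 promoter, GRCm38.p6 chr5:31116362-31116661, plus strand: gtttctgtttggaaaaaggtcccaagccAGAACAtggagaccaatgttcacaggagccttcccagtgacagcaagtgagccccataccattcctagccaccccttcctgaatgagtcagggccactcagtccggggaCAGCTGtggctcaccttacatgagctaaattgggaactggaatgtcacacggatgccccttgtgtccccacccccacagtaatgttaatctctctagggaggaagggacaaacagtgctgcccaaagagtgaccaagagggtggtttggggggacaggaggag
Asb15 promoter, GRCm38.p6 chr6:24527894-24528193, plus strand: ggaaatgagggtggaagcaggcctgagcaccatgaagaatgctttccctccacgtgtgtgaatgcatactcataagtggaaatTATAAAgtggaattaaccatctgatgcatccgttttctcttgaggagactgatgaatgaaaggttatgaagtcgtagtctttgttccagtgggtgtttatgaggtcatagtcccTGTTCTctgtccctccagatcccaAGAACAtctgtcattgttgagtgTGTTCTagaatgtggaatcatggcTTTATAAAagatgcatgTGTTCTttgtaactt
Counted from the start site, the Trim63 window held the half-site at position -200, followed without a gap or overlap by the FoxO core at -194, with the E-box at -72 and the TATA box at -31. The FoxO core occurs in 3.65% of 32851 RefSeq windows and was not found in the other 4 genes' windows. Asb15 had 4 half-site matches and 3 TATA box matches, the latter at positions -167, 18 and 20. The last 2 overlap on opposite strands and lie after the start site. At least 1 half-site is found in 19.0% of windows and at least 1 TATAAA in 13.6%, shares that take no account of repeated matches. Trim54 held 1 half-site and 1 E-box and no TATAAA; the E-box occurs in 16.3% of windows. The MEF2 site, found in 0.557% of windows, was in none of the 5 genes' windows. A match is a description of letters, not a binding site or a cause.

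TAB against sham asked how pressure load changed these transcripts in each genotype. All 8 genes were lower after TAB in CHIP(-/-) ventricles, and 6 of them in wild-type ventricles, where Trim55 and Trim54 did not pass. A probe was called at an adjusted p below 0.05 from limma with Benjamini-Hochberg adjustment over all 14684 probes tested. Of the 10 member probes bright enough to test, 10 fell in CHIP(-/-), where 22.7% of all tested probes were called lower, and 8 fell in wild type, where 17.1% were. The other 3 of the 13 probes were too dim, and since a probe could enter through its sham arrays alone, these counts describe the 10 and are not support for all 13. Their median fitted difference was -0.73 in CHIP(-/-) and -0.62 in wild type, beside -0.02 and -0.01 over all tested probes. For the 2 probes dim on every CHIP(-/-) TAB array, the difference was also taken from the heart signal, scaled between arrays. Dim spots were there counted at no less than the lowest signal well above background on their array. With these 2 differences in place of the fitted ones the CHIP(-/-) median was -0.68, a move that includes the change of measure. For 9 probes in CHIP(-/-) every TAB array lay below every sham array, as did 20.3% of all tested probes, and for 8 in wild type, against 15.4%. Leaving out the arrays with high Myl7 gave 9 and 7 calls, and leaving out those with Ddx3y gave 9 and 8.

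**Figure D1:**
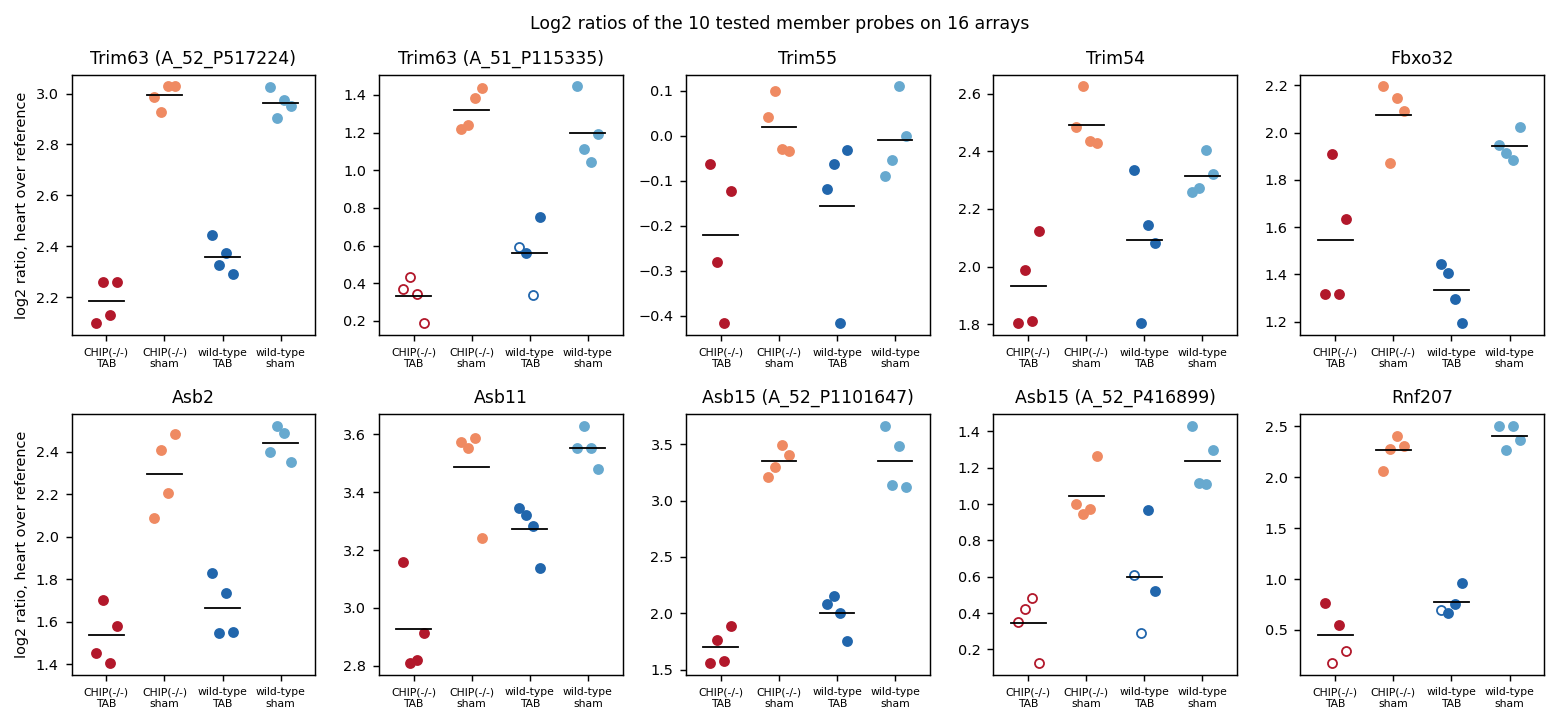
Log2 ratios of heart over reference RNA (y axis) for the 10 tested probes, by group, with 1 point per array, open where the heart spot was not well above background and a line at the group mean; y scales differ between panels. The TAB arrays lay below the sham arrays of their genotype except for Fbxo32 in CHIP(-/-) and Trim55 and Trim54 in wild type.

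Among the MuRF genes the response was uneven. Trim63 fell on both of its probes and in both genotypes. On the brighter probe, A_52_P517224, its log2 ratios were 2.10, 2.26, 2.13 and 2.26 on the CHIP(-/-) TAB arrays, against 2.99, 2.93, 3.03 and 3.03 on the CHIP(-/-) sham arrays. Wild-type TAB arrays had 2.44, 2.33, 2.37 and 2.29, against 3.03, 2.90, 2.98 and 2.95 on wild-type sham arrays. Sham arrays of both genotypes kept within a narrow band, the TAB arrays lay clear below it, and each CHIP(-/-) TAB array lay below each wild-type TAB array. The difference was -0.81 in CHIP(-/-) (SE 0.059, adjusted p = 2.56e-10) and -0.61 in wild type (SE 0.059, adjusted p = 6.81e-08), a 1.75-fold and a 1.52-fold lower level.

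The second Trim63 probe, A_51_P115335, was dimmer and not well above background on any CHIP(-/-) TAB array. There its ratios were 0.37, 0.43, 0.34 and 0.19, against 1.22, 1.24, 1.38 and 1.44 after sham. In wild type they were 0.59, 0.56, 0.34 and 0.75 after TAB, with 2 of the 4 arrays well above background, against 1.45, 1.11, 1.05 and 1.19 after sham. Both genotypes thus showed TAB arrays below all sham arrays on this probe as well. Its fitted log2 ratio was 0.99 lower after TAB in CHIP(-/-) (SE 0.11, adjusted p = 9.99e-08), or 1.99-fold. Taken instead from the heart signal, scaled between arrays, the fall was 1.89-fold. For that fold each dim spot was counted at no less than the lowest signal well above background on its array. The CHIP(-/-) TAB mean of the log2 heart signal, 6.28, lay above the mean of that limit, 6.14. Both folds are therefore estimates from dim spots, not bounds. In wild type the fitted log2 ratio was 0.64 lower (SE 0.11, adjusted p = 8.16e-05).

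Trim54, whose product MuRF3 binds microtubules, fell in CHIP(-/-) ventricles. It stood at 1.80, 1.99, 1.81 and 2.12 on CHIP(-/-) TAB arrays, against 2.48, 2.63, 2.44 and 2.43 on CHIP(-/-) sham arrays, a difference of -0.56 (SE 0.087, adjusted p = 1.26e-05). The wild-type TAB arrays were spread from 1.81 on replicate 2 through 2.14 and 2.08 to 2.34 on replicate 1, against 2.26, 2.27, 2.41 and 2.32 after sham. Wild-type groups overlapped, and their difference of -0.22 (SE 0.087) did not pass (adjusted p = 0.0513). It passed in 7 of 29 other settings, among them leaving out wild-type TAB replicate 1 (-0.31, adjusted p = 0.00655) and the heart channel taken without its reference (-0.40, adjusted p = 0.00196).

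Trim55, which encodes MuRF2, changed least. CHIP(-/-) TAB arrays had -0.06, -0.28, -0.42 and -0.12, against 0.04, 0.10, -0.03 and -0.03 on CHIP(-/-) sham arrays. In wild type the values were -0.12, -0.06, -0.42 and -0.03 after TAB, against -0.09, -0.05, 0.11 and 0.00 after sham, and the groups overlapped. The difference of -0.24 in CHIP(-/-) passed (SE 0.082, adjusted p = 0.0211), and that of -0.15 in wild type did not (95% interval -0.32 to 0.02, adjusted p = 0.175). The CHIP(-/-) call rested on single arrays: it ended without CHIP(-/-) sham replicate 2 (-0.21, adjusted p = 0.065), without CHIP(-/-) TAB replicate 2 (-0.22, adjusted p = 0.0526) and without CHIP(-/-) TAB replicate 3 (-0.17, adjusted p = 0.0998). It also ended without the high-Myl7 arrays (adjusted p = 0.0508) or the Ddx3y arrays (adjusted p = 0.112), and in the heart channel alone the difference was 0.035 (adjusted p = 0.821).

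Fbxo32, the atrogin-1 gene, was lower after TAB in both genotypes. Its ratios were 1.32, 1.91, 1.32 and 1.64 on CHIP(-/-) TAB arrays, against 2.20, 1.87, 2.15 and 2.09 on CHIP(-/-) sham arrays. Those of wild type were 1.45, 1.41, 1.30 and 1.19 after TAB, against 1.95, 1.91, 1.88 and 2.02 after sham. CHIP(-/-) TAB replicate 2 reached into the sham range, at 1.91 against 1.87 on CHIP(-/-) sham replicate 2, while the wild-type groups lay apart. The differences were -0.53 in CHIP(-/-) (SE 0.11, adjusted p = 0.000245) and -0.61 in wild type (SE 0.11, adjusted p = 0.000101).

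Asb15, a muscle-enriched ASB gene, had the largest fall of the 3. On probe A_52_P1101647 the CHIP(-/-) TAB arrays had 1.56, 1.77, 1.58 and 1.89, against 3.21, 3.30, 3.49 and 3.40 on CHIP(-/-) sham arrays. Wild-type TAB arrays had 2.09, 2.16, 2.00 and 1.76, against 3.66, 3.13, 3.48 and 3.12 on wild-type sham arrays. The TAB arrays lay far below the sham arrays of their genotype, with the highest TAB value at 2.16 and the lowest sham value at 3.12. The fall was 3.14-fold in CHIP(-/-) (log2 difference -1.65, SE 0.12, adjusted p = 2.02e-10) and 2.55-fold in wild type (-1.35, SE 0.12, adjusted p = 1.79e-08).

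Asb15 had 2 further probes, which show how far the reported size depends on the probe. Probe A_52_P416899 read 0.35, 0.42, 0.48 and 0.13 on CHIP(-/-) TAB arrays, none of them well above background, against 1.00, 0.94, 0.97 and 1.26 on CHIP(-/-) sham arrays. In wild type it read 0.61, 0.29, 0.97 and 0.52 after TAB, with 2 of the 4 arrays well above background, against 1.43, 1.12, 1.11 and 1.30 after sham. It too was lower on every TAB array than on the sham arrays of its genotype. The fitted fall was 0.70 on the log2 scale in CHIP(-/-) (SE 0.13, adjusted p = 0.000121) and 0.64 in wild type (SE 0.13, adjusted p = 0.000518). In the heart signal, with dim spots counted as for Trim63, the CHIP(-/-) fall was 1.51-fold. Both CHIP(-/-) values are again estimates from dim spots. The third, A_51_P160897, was not well above background on any of the 16 arrays and was not tested. Its values lay between -0.03 and 0.46.

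Asb2, whose product targets filamins for degradation in muscle and blood cells, was lower after TAB by nearly equal amounts. CHIP(-/-) TAB arrays had 1.45, 1.70, 1.41 and 1.58, against 2.09, 2.41, 2.21 and 2.48 on CHIP(-/-) sham arrays. Wild-type TAB arrays had 1.83, 1.54, 1.74 and 1.55, against 2.40, 2.52, 2.49 and 2.35 on wild-type sham arrays. The TAB and sham arrays lay apart in both genotypes, with differences of -0.76 in CHIP(-/-) (SE 0.086, adjusted p = 1.55e-07) and -0.77 in wild type (SE 0.086, adjusted p = 3.98e-07).

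Asb11, known in zebrafish as a regulator of Notch signalling, fell in both genotypes by less than Asb2 or the brightest Asb15 probe. Its probe A_51_P125383 read 3.16, 2.81, 2.82 and 2.91 on CHIP(-/-) TAB arrays, against 3.57, 3.55, 3.59 and 3.24 on CHIP(-/-) sham arrays. It read 3.35, 3.32, 3.28 and 3.14 on wild-type TAB arrays, against 3.55, 3.63, 3.55 and 3.48 on wild-type sham arrays. All TAB arrays lay below the sham arrays of their genotype, by little in both cases. The difference was -0.56 in CHIP(-/-) (SE 0.088, adjusted p = 1.37e-05) and -0.28 in wild type (SE 0.088, adjusted p = 0.0154). The wild-type call ended without wild-type TAB replicate 4 (-0.24, adjusted p = 0.0599), without the high-Myl7 arrays (adjusted p = 0.0859) and with the scanner software's own log ratios (-0.13, adjusted p = 0.389). The other Asb11 probe, A_52_P491899, was not well above background on any array.

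Rnf207 had the lowest difference of all 14684 tested probes in wild type and the 9th lowest in CHIP(-/-). Its probe A_52_P213722 read 0.76, 0.18, 0.55 and 0.29 on CHIP(-/-) TAB arrays, against 2.06, 2.28, 2.40 and 2.31 on CHIP(-/-) sham arrays. It read 0.70, 0.66, 0.76 and 0.96 on wild-type TAB arrays, against 2.51, 2.26, 2.50 and 2.36 on wild-type sham arrays. The gap between TAB and sham arrays was wide in both genotypes, with differences of -1.82 in CHIP(-/-) (SE 0.12, adjusted p = 4.31e-11) and -1.64 in wild type (SE 0.12, adjusted p = 1.13e-09), or 3.52-fold and 3.11-fold lower. The size depended on the processing: over 29 other settings it ran from -2.90 to -1.41 in CHIP(-/-) and from -2.16 to -1.25 in wild type.

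After TAB the Rnf207 signal came close to background. The heart spot of A_52_P213722 was well above background on 2 of 4 CHIP(-/-) TAB arrays, 4 of 4 CHIP(-/-) sham arrays, 3 of 4 wild-type TAB arrays and 4 of 4 wild-type sham arrays. Its mean heart signal was 81.4, 55.2, 72.2 and 64.5 scanner units on CHIP(-/-) TAB arrays, against 194, 206, 254 and 248 on CHIP(-/-) sham arrays. It was 69.1, 80.3, 75.8 and 83.8 on wild-type TAB arrays, against 305, 210, 261 and 226 on wild-type sham arrays. The spots read 1.31 to 1.94 times their local background on CHIP(-/-) TAB arrays and 1.78 to 2.15 times on wild-type TAB arrays, against 4.72 to 6.86 and 4.78 to 7.10 times on the sham arrays. Background therefore bounds how exactly either fall is known.

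**Figure D2:**
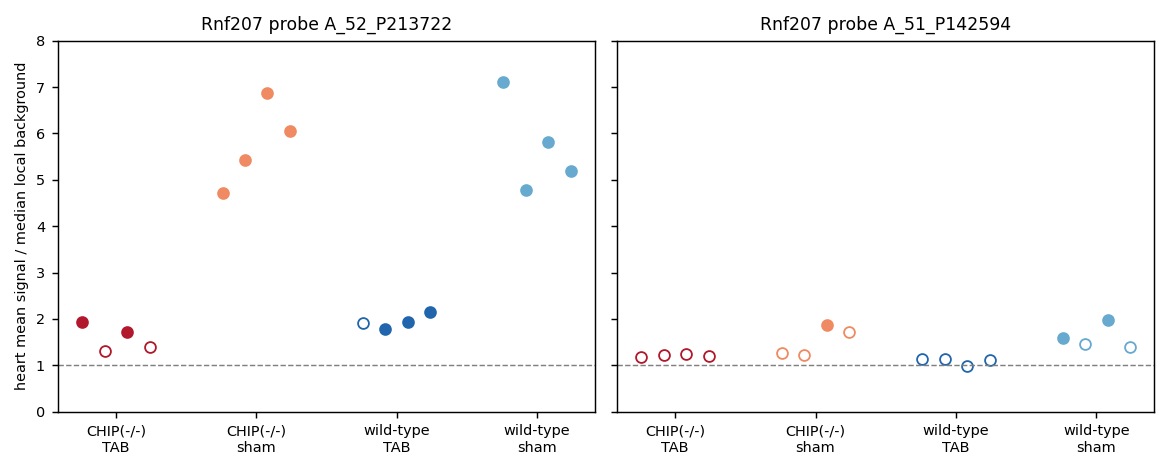
Mean heart signal of the 2 Rnf207 probes divided by the median local background (y axis; the dashed line is background itself), by group, with 1 point per array, filled where the spot was well above background. On A_52_P213722 the sham arrays lay at 4.72 or more and the TAB arrays at 2.15 or less.

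The second Rnf207 probe, A_51_P142594, was too dim to be tested with the others. No TAB array of either genotype had it well above background, against 1 CHIP(-/-) sham and 2 wild-type sham arrays. Its log2 ratios were -0.06 to 0.07 on CHIP(-/-) TAB arrays, against 0.09 to 0.73 on CHIP(-/-) sham arrays. In wild type they were 0.01 to 0.10 after TAB, against 0.33 to 0.80 after sham, a smaller gap than on A_52_P213722. Because its sham spots were in part dim as well, no minimum size of the fall follows from this probe. Rnf207 is known to affect the HERG potassium channel, and Kcnh2, which encodes that channel, fell by 0.42 in CHIP(-/-) (adjusted p = 0.0056) and by 0.43 in wild type (adjusted p = 0.00642). The size of the Kcnh2 fall depended on the scaling, at -0.84 in CHIP(-/-) and -1.06 in wild type with the scanner software's log ratios and -0.26 and -0.24 in the heart channel alone.

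**Figure D3:**
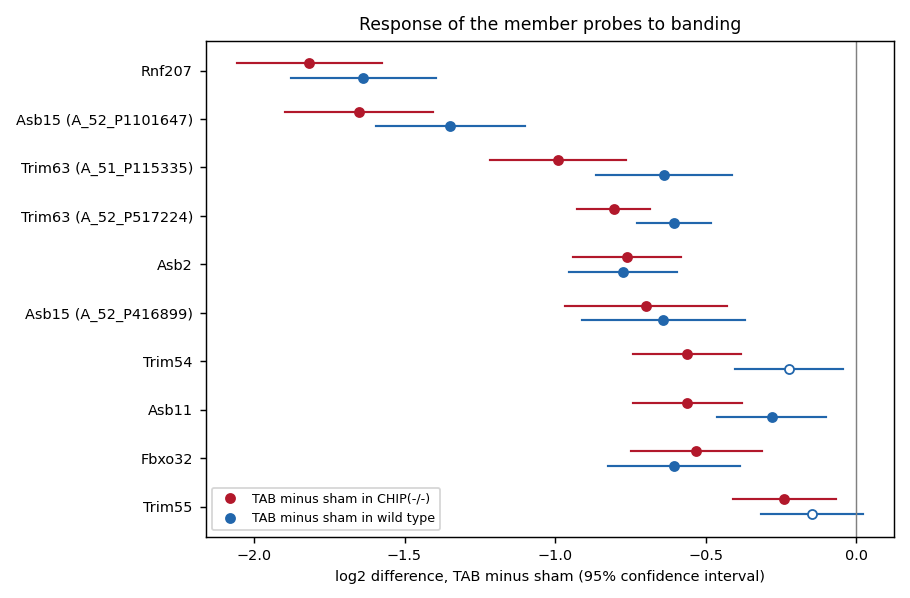
Log2 difference of TAB minus sham (x axis) for the 10 tested probes in CHIP(-/-) (red) and wild type (blue), with 95% confidence intervals; filled points passed at an adjusted p below 0.05. For the dimmer probes of Trim63 and Asb15 the CHIP(-/-) estimates are fitted values near background. Estimates run from -1.82 for Rnf207 in CHIP(-/-) to -0.15 for Trim55 in wild type, and the intervals of the 2 genotypes overlap for every probe.

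CHIP(-/-) against wild type asked whether loss of CHIP alone, or together with load, shifted these transcripts. After sham no member probe passed in limma, where 0.0341% of all tested probes were called. None had an unadjusted p below 0.05, which 1127 of all 14684 probes had. The differences ran from -0.19 on Asb15's probe A_52_P416899 to 0.18 for Trim54. Trim54 was higher on every CHIP(-/-) sham array than on every wild-type sham array without passing (95% interval -0.0017 to 0.36, adjusted p = 0.659). For Trim63's brighter probe the interval was -0.09 to 0.15, and for Asb15's brightest -0.25 to 0.25.

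After TAB 1 of the 10 probes passed, that of Asb11, where 9.91% of all tested probes were called and 5.48% were called lower. Asb11 was 0.35 lower in CHIP(-/-) (SE 0.088, adjusted p = 0.0117), although its groups overlapped, with CHIP(-/-) TAB replicate 1 at 3.16 and wild-type TAB replicate 4 at 3.14. That call ended without CHIP(-/-) TAB replicate 3 (-0.31, adjusted p = 0.0522), with median centring in place of loess (-0.31, adjusted p = 0.146), with the scanner software's log ratios (-0.32, adjusted p = 0.0708), in the deposited series table (-0.32, adjusted p = 0.0644) and in the heart channel alone (-0.20, adjusted p = 0.142). A further 4 probes had an unadjusted p below 0.05 and did not pass: both probes of Trim63, the dimmer of which was not well above background on any CHIP(-/-) TAB array, the brightest of Asb15 and the brighter of Rnf207. Over all tested probes 3317 had such a p. Trim63's brighter probe was 0.17 lower in CHIP(-/-) on all arrays (95% interval -0.29 to -0.05, adjusted p = 0.0678). Fbxo32 alone had its mean higher in CHIP(-/-), by 0.21 (95% interval -0.01 to 0.43, adjusted p = 0.246).

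The interaction asks whether the response to TAB differed between genotypes, and is given as the CHIP(-/-) difference less the wild-type one. It passed for none of the 10 probes in limma, where 4.37% of all tested probes were called. Both Trim63 probes, Trim54 and Asb11 had an unadjusted p below 0.05, as did 2486 of all 14684 probes. The dimmer probes of Trim63 and Asb15, with no CHIP(-/-) TAB array well above background, give no exact interaction. Over the other 8 probes the estimates ran from -0.34 for Trim54 to 0.07 for Fbxo32. Trim54 had the smallest p of the 8, at -0.34 (SE 0.12, adjusted p = 0.133). Its interaction passed without wild-type TAB replicate 2 (-0.43, adjusted p = 0.0234) and in the heart channel alone (-0.49, adjusted p = 0.0318). For Asb2 the interval was -0.24 to 0.27, for Rnf207 -0.52 to 0.16 and for Asb15's brightest probe -0.65 to 0.05.

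Other ASB genes were read as a list of 15, of which 11 were bright enough to test on their brightest probe. In CHIP(-/-) 5 of the 11 fell and none rose, and in wild type 4 fell and none rose; over the brightest probe of all genes 22.9% were called lower and 24.1% higher in CHIP(-/-), and 16.9% lower and 18.7% higher in wild type. Asb14, a further SOCS-box receptor, read 1.41, 1.84, 1.08 and 1.83 on CHIP(-/-) TAB arrays, against 3.05, 3.04, 3.07 and 2.96 on CHIP(-/-) sham arrays. It read 2.24, 2.38, 2.01 and 1.94 on wild-type TAB arrays, against 3.21, 2.96, 2.87 and 2.90 on wild-type sham arrays. Its TAB arrays lay below its sham arrays in both genotypes, by 1.49 in CHIP(-/-) (adjusted p = 4.6e-09) and by 0.84 in wild type (adjusted p = 3.5e-05), and its interaction did not pass (-0.65, adjusted p = 0.0515). Asb10 fell by 0.73 and 0.65, and Asb8 by 0.40 and 0.26, in CHIP(-/-) and wild type in that order. The median of the list was -0.15 in CHIP(-/-) and -0.12 in wild type.

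**Figure D4:**
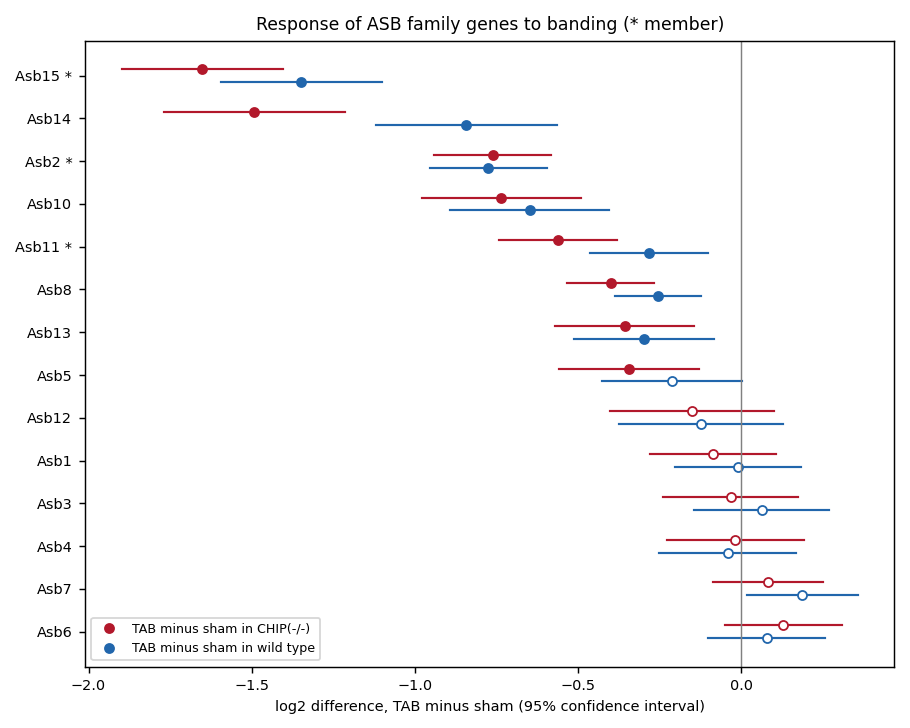
Log2 difference of TAB minus sham (x axis) for the 3 ASB genes described here (asterisk) and 11 others, brightest probe each, in CHIP(-/-) (red) and wild type (blue), with 95% confidence intervals; filled points passed. The 3 genes and Asb14, Asb10, Asb8 and Asb13 were called lower in both genotypes, and Asb5 in CHIP(-/-).

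Of 8 tested genes of the shared core of the ASB ligases 1 fell and 3 rose in CHIP(-/-), where 22.9% and 24.1% of all genes did, and 1 fell and 2 rose in wild type, where 16.9% and 18.7% did. Cul5, the cullin scaffold, read 0.36, 0.38, 0.29 and 0.59 on CHIP(-/-) TAB arrays, against 0.97, 0.94, 0.86 and 1.00 on CHIP(-/-) sham arrays. It fell by 0.53 in CHIP(-/-) (adjusted p = 7.04e-07) and by 0.22 in wild type (adjusted p = 0.0124) on its brightest probe, while its other 3 tested probes did not pass. Its wild-type call ended in the heart channel alone (-0.20, adjusted p = 0.0925). Elob, the elongin B gene, rose by 0.24 in CHIP(-/-) and 0.26 in wild type, and Nedd8, the cullin activator, by 0.21 and 0.16, but with median centring both genes had negative differences in both genotypes and did not pass. Eloc and Rnf7, the elongin C and RING subunit genes, passed in neither genotype, but their calls depended on the scaling. With median centring Rnf7 was called lower in CHIP(-/-) (-0.53, adjusted p = 0.00125) and in wild type (-0.37, adjusted p = 0.0289), and Eloc in wild type (-0.35, adjusted p = 0.0186). In the heart channel alone Rnf7 was called lower (-0.26, adjusted p = 0.00851) and Eloc higher (0.27, adjusted p = 0.0326) in CHIP(-/-).

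In the core of the cullin-1 ligases that atrogin-1 joins, 2 of 8 tested genes fell and 3 rose in CHIP(-/-), and 1 fell and 2 rose in wild type. Over the brightest probe of all genes 22.9% fell and 24.1% rose in CHIP(-/-), and 16.9% fell and 18.7% rose in wild type. Cand1, a cullin exchange factor, rose by 0.52 in CHIP(-/-) (adjusted p = 2.41e-06) and stood at 0.17 in wild type without passing, with an interaction of 0.35 (adjusted p = 0.049). The CHIP(-/-) call ended with median centring (0.15, adjusted p = 0.334), and the interaction ended with median centring (adjusted p = 0.744), with the scanner software's log ratios (adjusted p = 0.0819) and in the heart channel alone (adjusted p = 0.319). Its second tested probe did not pass in CHIP(-/-) (0.11, adjusted p = 0.311) and rose in wild type (0.28, adjusted p = 0.0174). Rbx1, the RING subunit, rose by 0.19 in CHIP(-/-) and 0.32 in wild type, was negative and did not pass with median centring, and had a further probe that fell in both genotypes. Ube2r2, a conjugating enzyme, fell by 0.24 in CHIP(-/-) and 0.32 in wild type on its brightest probe, 1 of 4 tested, not all of which passed. Among 17 tested other muscle ubiquitin ligases 7 fell and 2 rose in CHIP(-/-), and 4 fell and 1 rose in wild type. These counts stand beside the same shares over all genes. Fbxo31, an F-box gene, fell by 1.11 in CHIP(-/-) and 0.69 in wild type, though its second probe had -0.39 and, without passing, -0.14. Fbxo21 fell by 0.60 and 0.53, and Fbxw7 by 0.52 and 0.40.

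Of 12 tested regulators of these genes 9 fell and 1 rose in CHIP(-/-), where 22.9% and 24.1% of all genes did. In wild type 6 fell and 1 rose, where 16.9% and 18.7% did. Klf15, a transcription factor known to raise Trim63 and Fbxo32 in skeletal muscle, read 0.79, 1.18, 0.32 and 1.07 on CHIP(-/-) TAB arrays, against 2.12, 2.34, 2.28 and 2.25 on CHIP(-/-) sham arrays. It read 1.65, 1.36, 1.12 and 1.05 on wild-type TAB arrays, against 2.10, 2.46, 2.43 and 2.02 on wild-type sham arrays. On this probe Klf15 was lower on all TAB arrays of both genotypes, by 1.41 in CHIP(-/-) (adjusted p = 4.13e-08) and by 0.96 in wild type (adjusted p = 2.24e-05). Its other probe also passed, with smaller falls and the larger one in wild type (-0.38 in CHIP(-/-), adjusted p = 0.0047, and -0.58 in wild type, adjusted p = 0.000159). Mef2d fell by 0.83 in CHIP(-/-) and 0.49 in wild type, with a second probe at -0.21 in CHIP(-/-), which did not pass, and -0.34 in wild type, which did. Ppargc1a, the PGC-1alpha gene, fell by 0.91 in CHIP(-/-), against -0.04 without passing in wild type (interaction -0.88, adjusted p = 0.000686). The wild-type result was unsettled: its other probe rose (0.38, adjusted p = 0.0272), and with median centring the brightest probe was called lower (-0.36, adjusted p = 0.0248). Foxo1 fell by 0.30 in CHIP(-/-) (adjusted p = 0.00485), where its second probe did not pass (-0.17, adjusted p = 0.126), and was at -0.20 in wild type without passing (adjusted p = 0.0628). The wild-type difference passed in 7 of 29 other settings, among them median centring (-0.46, adjusted p = 0.00201) and the heart channel alone (-0.27, adjusted p = 0.0148). Foxo3 and Foxo4 were not well above background on any array.

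Of 14 tested substrates and targets of these ligases 6 fell and 5 rose in CHIP(-/-), where 22.9% and 24.1% of all genes did. In wild type 5 fell and 4 rose, where 16.9% and 18.7% did. Myh7, the beta myosin heavy chain gene, rose by 2.11 in CHIP(-/-) and 1.60 in wild type, and Myh6, the alpha myosin gene, fell by 0.83 and 0.42. Des, the desmin gene, rose by 1.32 in CHIP(-/-) and was at 0.17 in wild type without passing, with an interaction of 1.15 (adjusted p = 0.000285). Flnc, the muscle filamin gene, rose by 0.43 and 0.30, but with median centring it was at 0.02 and -0.03 and did not pass, and its second probe did not pass in wild type (-0.15, adjusted p = 0.286). These are transcript levels and say nothing of the proteins.

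Levels of cell type markers moved with the same comparisons, and their part in the results was not tested. The mean log2 ratio of 8 tested cardiomyocyte markers was 3.12 to 3.34 on CHIP(-/-) TAB arrays, against 3.50 to 3.64 on CHIP(-/-) sham arrays, and 3.37 to 3.69 on wild-type TAB arrays, against 3.54 to 3.69 on wild-type sham arrays. That of 7 tested fibroblast markers was -0.27 to 0.03 on CHIP(-/-) TAB arrays, against -1.82 to -1.39 on CHIP(-/-) sham arrays, and -1.09 to -0.49 on wild-type TAB arrays, against -1.60 to -1.17 on wild-type sham arrays. Of the cardiomyocyte markers 7 of 8 fell and 1 rose in CHIP(-/-), and 3 of 8 fell in wild type. Of the fibroblast markers 6 of 7 rose in CHIP(-/-) and 5 of 7 in wild type. Over 29 other settings 3 to 8 cardiomyocyte markers fell in CHIP(-/-) and 1 to 8 in wild type. In the same settings 4 to 7 fibroblast markers rose in CHIP(-/-) and 2 to 6 in wild type. Beside all marker counts here, 22.9% of all genes fell and 24.1% rose in CHIP(-/-), and 16.9% fell and 18.7% rose in wild type. In whole ventricle, fewer heart muscle cells and less of a transcript per cell cannot be told apart. Macrophage markers rose in CHIP(-/-) for 7 of 7 and in wild type for 5 of 7, with means of 0.54 to 0.77 on CHIP(-/-) TAB arrays, against -0.24 to -0.09 on CHIP(-/-) sham arrays, and 0.23 to 0.37 on wild-type TAB arrays, against -0.12 to 0.03 on wild-type sham arrays. Of 5 tested smooth muscle markers 4 rose and 1 fell in CHIP(-/-), with means of -0.32 to 0.05 on CHIP(-/-) TAB arrays, against -1.24 to -1.13 on CHIP(-/-) sham arrays. In wild type 3 rose and 1 fell, with -0.50 to -0.33 on TAB arrays, against -1.11 to -0.93 on sham arrays. Of 6 tested endothelial markers 3 rose in CHIP(-/-), with means of 0.60 to 0.81 on CHIP(-/-) TAB arrays, against 0.48 to 0.60 on CHIP(-/-) sham arrays, and 4 rose in wild type, with 0.71 to 1.13 on TAB arrays, against 0.53 to 0.61 on sham arrays. Over the 29 other settings 0 to 3 endothelial markers rose and 0 to 2 fell in CHIP(-/-), and 1 to 5 rose in wild type. Counts of the other marker types also varied with the settings. Of 5 tested atrial markers 2 rose in each genotype, and neither of 2 tested red cell markers passed. The mean log2 ratio of 7 tested skeletal muscle markers to the whole neonatal reference was negative on all arrays, which does not give their level in ventricle. Of these markers 3 fell and 1 rose in CHIP(-/-), and 2 fell and 1 rose in wild type. For these 7 the mean was -2.38 to -2.12 on CHIP(-/-) TAB arrays, against -2.09 to -1.90 on CHIP(-/-) sham arrays, and -2.27 to -2.00 on wild-type TAB arrays, against -2.12 to -1.88 on wild-type sham arrays; Pvalb and Myod1 were not well above background on any array.

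Across the 16 arrays the 8 genes varied together, mostly through the difference between TAB and sham. Pearson's r between 2 of the genes, on their brightest probes, ran from 0.49 to 0.99 over 28 pairs, with a median of 0.80. With each group's mean subtracted the same pairs ran from -0.76 to 0.74, with a median of 0.05. Trim63 and Fbxo32 had 0.74 by that measure and Trim63 and Asb15 had 0.72, while Fbxo32 and Rnf207 had -0.76. The 2 tested probes of the same gene had 0.09 for Trim63 and -0.03 for Asb15, so r within groups depended on the probe. Some Rnf207 spots after TAB, and the dimmer probes of Trim63 and Asb15, were near background. All pairs share the arrays, so these values are descriptions.

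**Figure D5:**
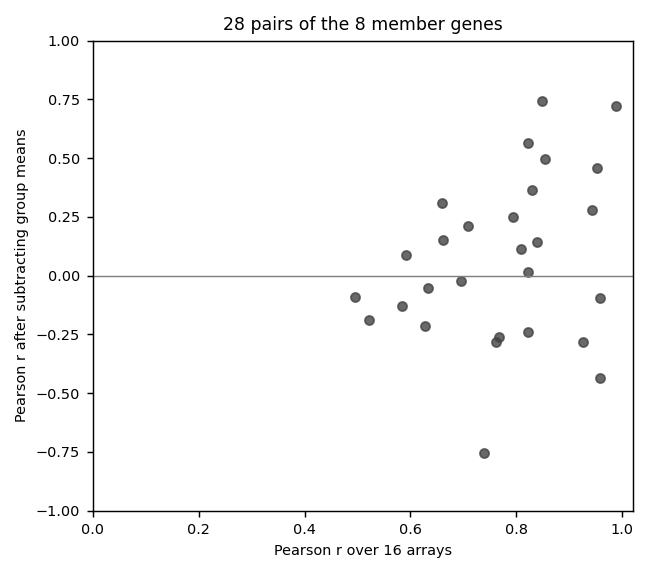
Pearson r between the log2 ratios of 2 member genes over 16 arrays (x axis) against r after each group's mean was subtracted (y axis), with 1 point for each of 28 pairs. All pairs were at 0.49 or more over the arrays and spread from -0.76 to 0.74 within groups.

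The tested genes whose log2 ratios over the 16 arrays were most like those of each gene are named with their r, and no shared function is implied. For Trim63 they were Fhod3, a formin of the sarcomere (0.99), and the glutathione transferase gene Gstm3 (0.99), and for Asb15 Fhod3 (0.99) and Trim63 itself (0.99). Rnf207 was most like Cmya5, which encodes the muscle protein myospryn (0.97), and Anapc5, a subunit gene of the anaphase-promoting ubiquitin ligase (0.97). Asb2 was most like Grb14, an adaptor of the insulin receptor (0.98), and Prpf19 (0.97), and Asb11 was most like Arhgap26 (0.95) and Rnf187 (0.93). The likest to Trim54 were Sord, the sorbitol dehydrogenase gene (0.94), and BC004004 (0.94), and to Fbxo32 Isyna1, the inositol phosphate synthase gene (0.95), and Emilin2 (0.94). Trim55 was most like AK135410 (0.92), a transcript without a gene name here, and Anapc16 (0.88). With group means subtracted, Trim63 and Fhod3 kept an r of 0.75, while Rnf207 and Cmya5 had 0.05.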

How the data were processed

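Heart RNA (Cy5) and a whole neonatal mouse reference RNA (Cy3), 500 ng each, were hybridised together on 16 arrays in 1 dye orientation, per the labels' protocols. Feature Extraction 9.1.3.1 read the scans of Agilent design 014868, per the file headers. In the deposited scanner files each channel has linear intensity values (mean signal and median local background), and a log10 ratio of heart over reference stands beside them, computed by that software. The deposited series table gives log2 ratios, which matched those log10 ratios after centring on each probe's median, and lists 8 of the 13 member probes; the sources used here do not say by what choice. The 4 CHIP(-/-) TAB files were saved with fewer digits and 47 altered gene names, so names were taken by probe from the other files.

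Intensities were corrected with limma's normexp (offset 50), log2 ratios were normalized by loess within arrays with controls at weight 0, outlier-marked spots (3 to 459 per array) were left out, and spots were averaged per probe. The 14684 of 41174 probes tested had a heart spot well above background on 4 or more arrays and a value on 15 or more. One linear model with 4 group means was fitted in limma 3.58.1 (R 4.3.3) with an intensity trend, and p-values were Benjamini-Hochberg adjusted over all tested probes. The same code was tested on simulated data. The heart signal used for dim probes in CHIP(-/-) came from the loess-normalized channels after limma's Aquantile scaling between arrays. Figures were drawn with matplotlib 3.10.9. All 13 member probes are described. From each gene list the 3 genes with the largest called TAB difference are named on the brightest probe of 9962 genes, with the partners Cul5, Rnf7, Elob, Eloc, Kcnh2, Flnc, Foxo3 and Klf15 whatever their values; Foxo1, Foxo4, Asb5 and Asb13 were named after their values were seen. For each member the 2 most correlated genes are named. Members, lists and rules were chosen with earlier results of these data known. Replicate numbers do not pair the arrays: deviations of same-numbered arrays correlated at -0.18 to 0.15. Precision is limited by how many arrays there are.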

Additional observations from a re-analysis of the deposited data

Results flagged for a closer look

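In 3 of 52 sets of 4 arrays of a group, 1 per member probe and group, a single array lay far from the other 3; chance gives about 1 in 20. Asb11's probe A_51_P125383 read 3.24 on CHIP(-/-) sham replicate 4, below the nearest of the others at 3.55. Asb15's probe A_52_P416899 read 1.26 on the same array, above the nearest at 1.00. Asb15's probe A_51_P160897, not well above background on any array, read 0.46 on wild-type TAB replicate 1, above the nearest at 0.10.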

How the results depend on the processing

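Over 29 other settings the number of member probes called ran from 8 to 11 in the TAB comparison of CHIP(-/-) and from 6 to 10 in that of wild type, the lowest counts with the deposited table's 8 member probes or 1 probe a gene; leaving out 1 array gave 9 to 10 and 7 to 9. After sham it was 0 throughout. For CHIP(-/-) against wild type after TAB the count of 1 became 0 with median centring, the Feature Extraction log ratio, the heart channel alone and the deposited table, and 2 with no background subtraction; leaving out 1 array gave 0 to 2. It became 0 without CHIP(-/-) TAB replicate 3, and 2 without wild-type TAB replicate 2 or 4 or without CHIP(-/-) TAB replicate 1 or 2. The interaction count of 0 became 1 in the heart channel alone and ran from 0 to 1 when 1 array was left out. Of called differences 1 changed sign, that of Trim55 after TAB in CHIP(-/-), at 0.035 in the heart channel alone. Differences that had not passed changed sign 29 times over probes, comparisons and settings, among them Trim55 after TAB in wild type (0.15) and between genotypes after TAB (0.19) in the heart channel alone, and Asb15's probe A_52_P1101647 between genotypes after TAB (0.02) with the Feature Extraction log ratio. The cause of these changes was not tested. Median centring moved the median of all probes to -0.21 in CHIP(-/-) and -0.18 in wild type and left 11.4% and 7.88% of calls upward, against 48.4% and 48.8%; for the genotype comparison after TAB 55.7% were upward, against 44.7%. In the heart channel alone 74.4% of only 43 calls were upward after sham, against 40% of only 5. In the interaction 39.7% of 624 calls were upward there, against 53.0% of 641. With median centring, all 10 member probes were called lower in both genotypes and stayed below that median. With the replicate number as a block (replicate block) the counts were 10, 8, 0, 1 and 0 for TAB in CHIP(-/-), TAB in wild type, genotype after sham, genotype after TAB and the interaction, the same as without it. Spots near background limit the size of the falls of Rnf207 and of the dimmer Trim63 and Asb15 probes.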
